A study of Xenopus laevis with 27 samples.

Results

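Gene expression in tails of Xenopus laevis tadpoles (a frog) 60 minutes after amputation (60 mpa, minutes post amputation) was set against that at 0 minutes (0 mpa). Members were the libraries labelled with these times, 3 at 60 mpa and 3 at 0 mpa (A to C at each), 6 of the 27 bulk RNA-seq libraries of the series, and all genes of the count table were examined. The series followed tail regeneration over 9 times, with 3 libraries at each: 0, 30, 60 and 90 mpa, then 3 and 6 hours post amputation (hpa), then 1, 3 and 7 days (dpa). The aim given in its text is to follow expression over the regeneration period, and 60 mpa is not among the times listed there, although these libraries carry that label. Per the labels, each library held total RNA extracted from 20 embryos at the stage at which tails regenerate, and its tissue is given as tail. All tails were amputated, at 60 mpa and at 0 mpa alike, so 0 mpa is tissue taken at the cut and not an uncut tail. No strain, age in days or sex is given. Per the labels the experiment was run in biological triplicate. They do not say whether A to C stem from separate clutches. The p-values refer to the spread between libraries of the same time, estimated over all 27 libraries, which may in part be technical. Among these 27 are the shallow libraries 90 mpa C and 7 dpa C, with far fewer counts than any of the 6 compared here.

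Xenopus tadpoles regrow an amputated tail with its spinal cord, notochord and muscle. Within minutes of wounding, many animal cells transcribe immediate early genes, which need no new protein for their induction because kinase cascades such as the ERK pathway act on factors already present (SRF, CREB and others). The products of these genes, among them AP-1, Egr, Klf and Nr4a transcription factors, act on a later set of genes, and further induced genes (phosphatases, RNA decay factors, SOCS proteins) dampen the signals. The roles named below are known mainly from mammals. The genome of this species was duplicated long ago, and gene symbols end in .L for the long subgenome and .S for the short one. Reads may have been split between such similar copies, or between tandem genes, in counting.

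Total counts were 4553932, 4186706 and 5844982 at 60 mpa (A, B and C) and 4356539, 4739923 and 5114908 at 0 mpa. Of 29776 genes, 22268 passed the filter on low counts, and these held at least 99.8% of the counts of each of the 6 libraries. Levels are given in CPM, in which the TMM-adjusted total of each library is set to 1000000 reads. Because CPM is not corrected for gene length, levels of different genes are not compared. Across genes, Pearson's r of log2 CPM was 0.8986 to 0.9084 between the 60 mpa libraries, 0.8691 to 0.9006 between the 0 mpa libraries and 0.8478 to 0.9029 between libraries of the 2 times.

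In the fit over all 27 libraries, 60 mpa was marked by a set of genes that rose steeply, with 1 gene lower. Lower genes numbered 76 in the 6 libraries alone and 100 without 5 libraries of other times with low depth or few detected genes. In the edgeR quasi-likelihood test with Benjamini-Hochberg adjustment, 257 genes differed between 60 mpa and 0 mpa at an adjusted p under 0.05. Of these, 256 were higher at 60 mpa (1.15% of genes tested) and 1 was lower (0.00449%). At an unadjusted p under 0.05, 1151 genes were higher and 403 lower, and the median log2 fold change of all tested genes was 0.0101. Of the 256 higher genes, 177 rose by a log2 fold change of at least 2, 108 by at least 3, 76 by at least 4 and 37 by at least 6. The smallest rise was 1.24 (arrdc1.S) and the median 2.65. In each of the 256 genes all 3 libraries at 60 mpa lay above all 3 at 0 mpa, a separation that 2295 of all tested genes (10.3%) had. At 0 mpa 15 of them had no read and 8 had 1 to 3 reads in all. The 256 genes took 4.52%, 5.1% and 5.02% of the scaled reads of libraries A, B and C at 60 mpa, against 0.646%, 0.586% and 0.747% at 0 mpa. Those shares describe genes chosen for their rise and are no further test of it. Leaving out 1 library left 237 to 171 changed genes, the fewest without 0 mpa B (171) and then 0 mpa A (177). In bulk tissue, more cells of a type and more RNA per cell cannot be told apart.

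**Figure D1:**
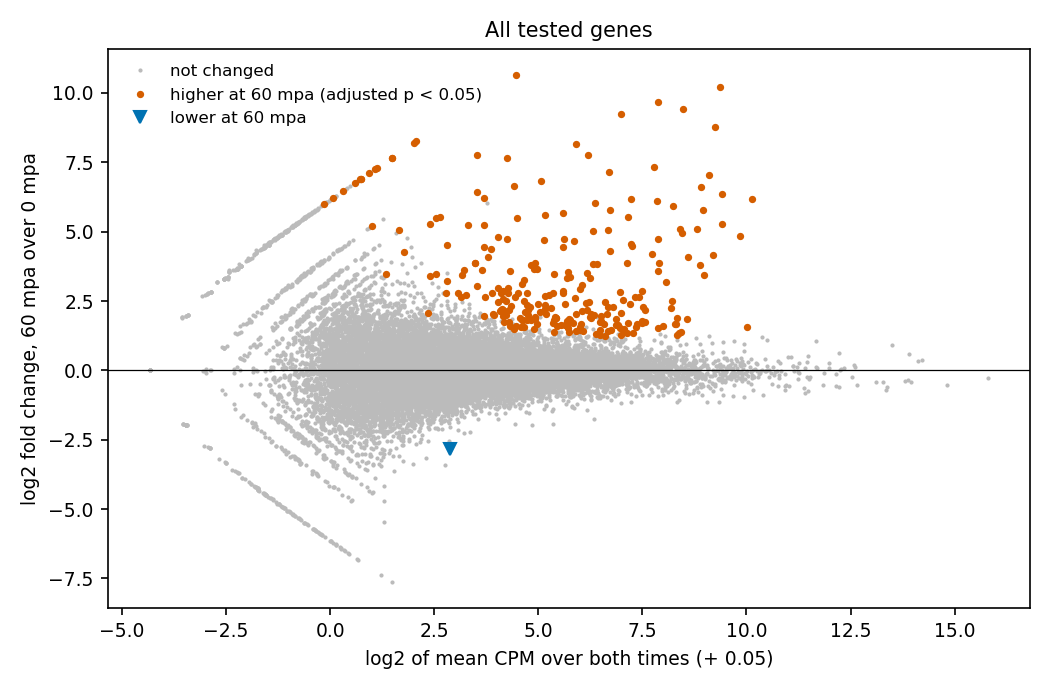
All 22268 tested genes by level (log2 of the mean CPM over both times plus 0.05, horizontal axis) and log2 fold change of 60 mpa over 0 mpa (vertical axis). Orange points are the 256 genes higher at 60 mpa and the blue triangle is znf423.L, the 1 lower gene; the diagonal lines of points at the left are genes with no or few reads at 1 of the times.

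AP-1 is the dimeric transcription factor built from Fos, Jun and ATF family proteins. Among 35 tested genes for AP-1 subunits and relatives, 17 rose (48.6%, against 1.15% of all tested genes) and none fell. The median log2 fold change over the list was 1.75. Summed over the list, levels were 8866 to 9409 CPM at 60 mpa and 528.4 to 647.1 CPM at 0 mpa. Both copies of fos, the founding member, were close to absent at 0 mpa. fos.L had 1375, 1276 and 1306 CPM in libraries A, B and C at 60 mpa, against 1.92, 0 and 1.30 CPM at 0 mpa. fos.S had 1444, 1155 and 1007 CPM at 60 mpa and 5.53, 0.252 and 2.37 CPM at 0 mpa. No library of one time came near the other time in either copy. The log2 fold changes were 10.20 ± 0.63 (SE, adjusted p = 8.28e-19) for fos.L and 8.77 ± 1.04 (adjusted p = 1.3e-05) for fos.S.

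The sister genes fosb and fosl1 (Fra-1) followed. fosb.L had 469.4, 475.5 and 465.6 CPM at 60 mpa and 1.68, 0 and 0 CPM at 0 mpa, a log2 fold change of 9.67 ± 1.02 (adjusted p = 8.38e-07). fosb.S had 634.8, 764.9 and 738.1 CPM at 60 mpa, against 1.20, 0.252 and 1.51 CPM at 0 mpa (9.42 ± 0.65, adjusted p = 9.18e-16). The fosb.L libraries at 60 mpa lay within 10 CPM of each other, while the 0 mpa values rest on 7 reads in library A alone. fosl1.L averaged 254.1 ± 54.7 CPM at 60 mpa and 0.401 ± 0.694 CPM at 0 mpa (SD, n = 3 each), and fosl1.S averaged 144.6 ± 41.9 and 0.648 ± 0.779 CPM. Their log2 fold changes were 9.24 ± 0.74 (adjusted p = 2.26e-12) and 7.78 ± 0.58 (adjusted p = 9.18e-16). The other 11 higher members were fosl2.L (3.34) and fosl2.S (4.45), jun.L (5.08) and jun.S (5.29), junb.L (6.09) and junb.S (5.08), jund.L (3.67) and jund.S (2.94), atf3.L (5.53) and atf3.S (6.02), and mafb.L (1.75), with the log2 fold change in brackets. Thus fos, fosb, fosl1, fosl2, jun, junb, jund and atf3 each rose in both copies. The 18 members that did not pass the test were jund.2.S and copies of bach, nfe2l and maf family genes.

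The second group held Egr zinc-finger factors, Nr4a orphan nuclear receptors, Krüppel-like factors and genes linked to SRF. Of 51 tested members, 19 rose (37.3%, against 1.15% of all tested genes) and none fell, with a list median log2 fold change of 1.41. egr4.L, from the Egr family, had the largest fitted log2 fold change of the called genes, a value that depends on the prior count. It had 62.2, 32.1 and 37.7 CPM at 60 mpa and no read in any 0 mpa library. Pooled over the 3 libraries of 60 mpa, that was at least 187-fold higher, against a floor of 3 counts over the 3 libraries of 0 mpa. The fitted log2 fold change was 10.66 ± 1.24 (adjusted p = 5.01e-09). Its copy egr4.S had 32.8, 24.4 and 23.2 CPM at 60 mpa and 0.24, 0 and 0.863 CPM at 0 mpa without passing the test over all 27 libraries (6.03 ± 2.00, adjusted p = 0.327). In the fit of the 6 libraries alone egr4.S had an adjusted p of 1.61e-07. The level of egr2.L was 119.6 ± 25.8 CPM at 60 mpa, against 0.36 ± 0.623 CPM at 0 mpa, where its 5 reads all lay in library C (8.18 ± 0.81, adjusted p = 5.89e-10).

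egr1.L took the most reads of all changed genes at 60 mpa. It had 1997, 2582 and 2101 CPM at 60 mpa and 43.3, 15.9 and 32.4 CPM at 0 mpa, so the lowest library at 60 mpa stood far above the highest at 0 mpa. The log2 fold change was 6.19 ± 0.49 (adjusted p = 3.93e-15) for egr1.L and 6.34 ± 0.48 (adjusted p = 1.07e-15) for egr1.S. klf2, a Krüppel-like factor known from endothelium and immune cells, rose in both copies. klf2.L had 453.3, 447.7 and 403.7 CPM at 60 mpa, against 3.60, 3.28 and 1.30 CPM at 0 mpa (7.32 ± 0.46, adjusted p = 8.28e-19). klf2.S averaged 1090 ± 101.1 CPM at 60 mpa and 8.11 ± 4.61 CPM at 0 mpa (7.06 ± 0.47, adjusted p = 7.05e-18). The remaining higher members were both copies of nr4a1 (4.1 for .L and 5.78 for .S), nr4a2 (7.16 and 6.19), klf4 (3.64 and 3.22), klf10 (1.8 and 1.41) and ier2 (4.73 and 3.84), and the .L copies of klf6 (2.21), klf11 (1.68) and ier5 (1.40), as log2 fold changes.

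**Figure D2:**
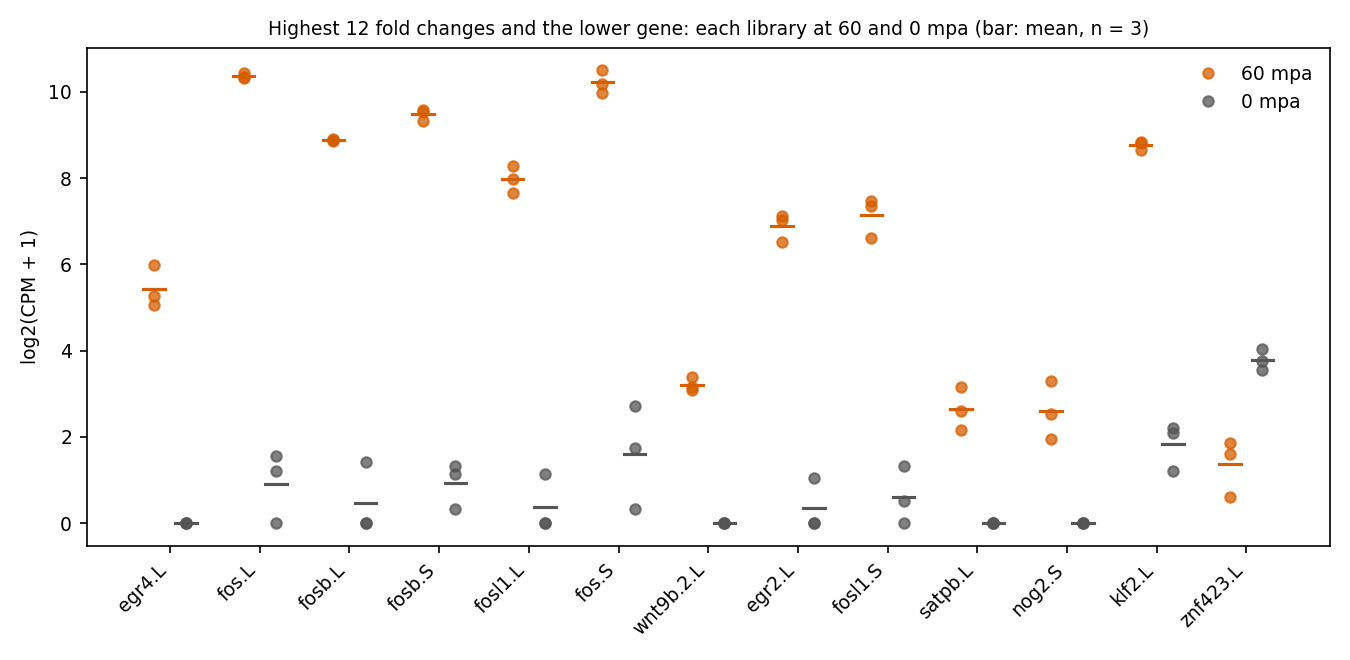
The 12 largest log2 fold changes among named genes higher at 60 mpa, and znf423.L, the 1 gene that was lower, in each library (points, log2 of CPM + 1; bars are the means of 3 libraries). Orange points are 60 mpa and grey points 0 mpa; the times do not overlap in any of the 13 genes, and egr4.L, wnt9b.2.L, satpb.L and nog2.S lie at 0 in all 3 libraries of 0 mpa.

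On the list of cAMP and CREB targets, 7 of 24 tested genes rose (29.2%, against 1.15% of all tested genes). The list median log2 fold change was 1.22, and whether cAMP or CREB induced these genes here was not tested. sik1.S, a kinase that feeds back on CREB coactivators, had 776.6, 1053 and 999 CPM at 60 mpa and 12.7, 7.31 and 9.07 CPM at 0 mpa (6.60 ± 0.50, adjusted p = 1.25e-15). crem, the cAMP-responsive element modulator, had few reads at 0 mpa. crem.S had 16.6, 28.4 and 22.7 CPM at 60 mpa and 3 reads in all at 0 mpa, a ratio of 95.4 (95% exact counting interval 32.3 to 465, adjusted p = 6.05e-07). crem.L averaged 19.2 ± 5.61 CPM at 60 mpa and 0.5 ± 0.669 CPM at 0 mpa (5.25 ± 0.80, adjusted p = 5.15e-06). The others were rgs2.L (2.29), rgs2.S (2.19), pde4b.L (2.80) and per1.L (1.78), as log2 fold changes. Without 0 mpa A the count on this list was 4.

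The list named for feedback on the ERK pathway was next, 8 higher of 37 tested (21.6%, against 1.15% of all tested genes). Its median log2 fold change was 0.76. Whether each member, phlda2 and dusp8 among them, acts on ERK itself was not examined. dusp5.L, a phosphatase that acts on ERK in the nucleus, had 452.8, 548.5 and 773 CPM at 60 mpa, against 14.9, 4.79 and 9.71 CPM at 0 mpa (5.91 ± 0.48, adjusted p = 1.74e-14). Its copy dusp5.S rose less, with 44.5 ± 7.5 CPM at 60 mpa and 8.78 ± 1.66 CPM at 0 mpa (2.34 ± 0.41, adjusted p = 0.000103). For dusp1, a phosphatase of several MAP kinases, the log2 fold changes were 4.67 ± 0.50 (dusp1.L, adjusted p = 2.72e-10) and 3.85 ± 0.41 (dusp1.S, adjusted p = 2.04e-10). phlda2.L had 6.03, 6.90 and 6.35 CPM at 60 mpa and 0, 0.252 and 0.648 CPM at 0 mpa (4.26 ± 1.01, adjusted p = 0.0101). This call was lost when library A or B of 0 mpa was left out (adjusted p = 0.128 and 0.0933). dusp6.L (1.90), dusp8.L (2.78) and errfi1.L (2.50), an inhibitor of the EGF receptor, completed the higher members.

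Among 88 tested genes for growth factor ligands, 5 rose (5.68%, against 1.15% of all tested genes). Of these, 4 were both copies of amphiregulin (areg) and epiregulin (ereg), ligands of the EGF receptor. The median log2 fold change over the list was 0.47. ereg.S had 92.6, 93.7 and 96.5 CPM at 60 mpa and 5.29, 0.252 and 4.75 CPM at 0 mpa (4.75 ± 0.59, adjusted p = 1.89e-07). ereg.L had 108.3, 109.7 and 73.8 CPM at 60 mpa, against 12.5, 4.03 and 8.42 CPM at 0 mpa (3.54 ± 0.51, adjusted p = 2.82e-06). areg.L averaged 20.8 ± 6.00 CPM at 60 mpa and 1.38 ± 1.24 CPM at 0 mpa (3.88 ± 0.68, adjusted p = 8.28e-05). The values of areg.S were 13.3 ± 2.35 and 0.565 ± 0.77 CPM (4.52 ± 1.07, adjusted p = 0.0123). Leaving out library B or C of 0 mpa ended the call of areg.S (adjusted p = 0.144 and 0.117). The fifth was wnt9b.2.L, a Wnt ligand, with 7.96, 7.43 and 9.43 CPM at 60 mpa. It had no read at 0 mpa, and so its pooled level was at least 35.6-fold higher (adjusted p = 0.000145).

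nog2.S, of the noggin family of BMP antagonists, and satpb.L were on no list and were named for their fold changes. nog2.S had 4.82, 8.76 and 2.87 CPM at 60 mpa and no read at 0 mpa. This made its pooled level at least 22.3-fold higher (adjusted p = 0.0214). The call was lost when library A, B or C of 0 mpa was left out (adjusted p = 0.128, 0.136 and 0.126) and when 60 mpa B was (0.0877). satpb.L had 5.06, 7.97 and 3.48 CPM at 60 mpa. None of its reads were at 0 mpa, which gives a rise of the pooled level of at least 22.6-fold (adjusted p = 0.00178). Both genes stood on few reads even at 60 mpa.

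Cytokines, chemokines and their feedback proteins gave 11 higher genes of 66 tested (16.7%, against 1.15% of all tested genes, median log2 fold change 0.76). socs3, which blocks JAK-STAT signalling, rose in both copies. socs3.L had 105.1, 88.2 and 91.6 CPM at 60 mpa and 0.481, 0.504 and 4.32 CPM at 0 mpa (5.68 ± 0.54, adjusted p = 4.86e-12). socs3.S averaged 154.9 ± 15.6 CPM at 60 mpa and 4.79 ± 3.42 CPM at 0 mpa (5.02 ± 0.49, adjusted p = 7.17e-12). lep.L, which encodes the hormone leptin, had 11.1, 15.7 and 9.43 CPM at 60 mpa and 3 reads in all at 0 mpa, all in library A. The ratio was 50.2 (95% exact counting interval 16.9 to 246, adjusted p = 0.000285), while lep.S had no more than 1.43 CPM in any of the 6 libraries. The chemokine genes cxcl8.S and ccl4.L, named after their values were seen, had no read at 0 mpa and averaged 3.73 ± 1.22 and 4.15 ± 2.07 CPM at 60 mpa (adjusted p = 0.0077 and 0.0132). The copy cxcl8.L had a higher mean at 60 mpa (9.68 CPM) and did not pass the test (log2 fold change 3.16, adjusted p = 0.12). The other higher members were both copies of cish (3.88 for .L and 2.88 for .S) and of tnfrsf12a (2.18 and 2.98), with cxcr4.S (1.76) and pim1.L (1.90), as log2 fold changes.

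On the NF-kB pathway list 1 of 54 tested genes rose (1.85%, near the 1.15% of all tested genes). This was tnip2.L, which encodes a protein that inhibits the pathway. It had 34.0, 35.8 and 61.9 CPM at 60 mpa and 1.92, 1.01 and 0 CPM at 0 mpa (5.48 ± 0.90, adjusted p = 0.000152). The list had a median log2 fold change of 0.45. At an unadjusted p under 0.05 were 7 of its 54 members, against 1151 higher and 403 lower of all 22268 tested genes. For prostaglandin synthesis and signalling, 2 of 23 tested genes rose (8.7%, against 1.15% of all tested genes). These were the copies of ptgs2, the inducible cyclooxygenase. ptgs2.L had 634.3, 669.6 and 733.4 CPM at 60 mpa, against 22.1, 17.9 and 25.7 CPM at 0 mpa (4.95 ± 0.46, adjusted p = 2.17e-12). ptgs2.S had 139.6, 197.8 and 173.2 CPM at 60 mpa and 36.8, 23.9 and 43.0 CPM at 0 mpa (2.30 ± 0.36, adjusted p = 1.06e-05).

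RNA decay factors and antiproliferative regulators held 13 higher genes of 58 tested (22.4%, against 1.15% of all tested genes, median log2 fold change 0.78). zfp36 encodes tristetraprolin, which directs the decay of AU-rich transcripts such as those of cytokines and early genes. zfp36.S, 1 of the 3 changed genes with the most reads at 60 mpa, had 1406, 1955 and 1935 CPM there, against 55, 53.7 and 77.3 CPM at 0 mpa (4.83 ± 0.44, adjusted p = 9.32e-13). zfp36.L averaged 929.2 ± 108.6 CPM at 60 mpa and 86.2 ± 14.7 CPM at 0 mpa (3.43 ± 0.39, adjusted p = 1.1e-09). From the BTG family, btg5.3.S had 35.9, 42.7 and 47.5 CPM at 60 mpa and 0.24, 0 and 0.863 CPM at 0 mpa (6.66 ± 0.65, adjusted p = 7.94e-12). btg5.2.L averaged 198.5 ± 51.4 CPM at 60 mpa and 5.96 ± 0.665 CPM at 0 mpa (5.05 ± 0.44, adjusted p = 1.42e-13). The others were btg2.S (4.54), gadd45g.L (4.37), gadd45g.S (3.40), mcl1.L (2.84), trib1.S (2.78), zfp36l2.L (2.23), zc3h12a.L (2.14), txnip.S (1.78) and zfp36l2.S (1.61), as log2 fold changes. Whether each listed gene, mcl1 among them, acts in RNA decay or against proliferation was not examined.

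Of 59 tested C/EBP, bHLH and Hes factors, 10 rose (16.9%, against 1.15% of all tested genes). The median log2 fold change of the list was 0.22. cebpd.S had 965.1, 1098 and 1262 CPM at 60 mpa and 70.2, 43.9 and 71.2 CPM at 0 mpa (4.16 ± 0.43, adjusted p = 7.92e-11), and cebpd.L averaged 879.7 ± 76.3 and 63.5 ± 14.9 CPM (3.79 ± 0.37, adjusted p = 9.11e-12). bhlhe40, a repressor that also acts in the circadian clock, rose in both copies, by 4.49 ± 0.38 for bhlhe40.L (adjusted p = 6.53e-14) and 2.38 ± 0.42 for bhlhe40.S (adjusted p = 8.28e-05). The Notch-responsive repressors hes1 (1.76 for .L and 1.83 for .S) and hes4 (1.86 and 1.67), with cebpb.L (2.18) and id2.S (1.58), made up the rest, as log2 fold changes. Without 0 mpa A the count on this list was 6.

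On the list of Myc, cyclins and growth control, 2 of 48 tested genes rose (4.17%, against 1.15% of all tested genes, median log2 fold change 0.19). myc.L had 134.1, 153.5 and 146.7 CPM at 60 mpa and 42.3, 56.0 and 38.0 CPM at 0 mpa (1.67 ± 0.36, adjusted p = 0.00347). With library A or C of 0 mpa left out it missed the threshold (adjusted p = 0.0513 and 0.0596), as did myc.S in the full data (1.56 ± 0.43, adjusted p = 0.0522, and 0.000862 in the 6 libraries alone). odc1.S, for ornithine decarboxylase of polyamine synthesis, averaged 75 ± 16 CPM at 60 mpa and 24.2 ± 3.63 CPM at 0 mpa (1.63 ± 0.36, adjusted p = 0.00472). The call of odc1.S was lost when 0 mpa A (adjusted p = 0.082) or 60 mpa A (0.0502) was left out. azin2.S, whose mammalian product protects ornithine decarboxylase from breakdown, was the third of the changed genes by reads. It had 1480, 1419 and 1727 CPM at 60 mpa, against 571.7, 422.8 and 557.7 CPM at 0 mpa (1.58 ± 0.38, adjusted p = 0.0114). Leaving out library A, B or C of 0 mpa ended the call of azin2.S (adjusted p = 0.0637, 0.159 and 0.0588), and so did leaving out 60 mpa C (0.0794). No member of the cell cycle list (73 tested) passed the test. Its smallest p belonged to wee1.L, an inhibitor of entry into mitosis, with 177.9 ± 34.1 CPM at 60 mpa and 84.6 ± 5.88 CPM at 0 mpa (1.07 ± 0.36, adjusted p = 0.219 and 0.00181 in the 6 libraries alone).

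Cytoskeletal targets of Yap and SRF had 6 higher of 83 tested (7.23%, against 1.15% of all tested genes, median log2 fold change 0.28). zyx.S, for the focal adhesion protein zyxin, averaged 248.6 ± 24.4 CPM at 60 mpa and 46.7 ± 11.8 CPM at 0 mpa (2.41 ± 0.37, adjusted p = 5.25e-06). The secreted Yap target ccn1 rose in both copies, by 2.16 ± 0.51 for ccn1.S (adjusted p = 0.0153) and 1.72 ± 0.37 for ccn1.L (adjusted p = 0.003). The call of ccn1.S was lost when library A, B or C of 0 mpa (adjusted p = 0.0523, 0.14 and 0.13) or A or C of 60 mpa (0.0545 and 0.0795) was left out, and that of ccn1.L when 0 mpa C was (0.0587). ccn2.L (1.44) and rhob.S (2.04) were also higher, as log2 fold changes.

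Of 79 tested matrix proteases and inhibitors 9 rose (11.4%), with a list median log2 fold change of 0.33. Of 86 genes on the structural matrix list 2 rose (2.33%, against 1.15% of all tested genes), with a median of 0.02. The contrast between these lists was not tested. mmp8.S, a collagenase gene, had 343.1, 430.7 and 437.5 CPM at 60 mpa and 34.6, 9.83 and 20.9 CPM at 0 mpa (4.21 ± 0.51, adjusted p = 8.99e-08). mmp8.L had 9.64, 30.8 and 35.9 CPM at 60 mpa, against 0.961, 0 and 0 CPM at 0 mpa (6.22 ± 0.88, adjusted p = 2.32e-05). adamts1.L (3.60) and adamts1.S (2.45), mmp1.S (2.84), adamts4.L (2.79), and serpinh1.L (1.54) and serpinh1.S (1.28) were also higher, as log2 fold changes. Whether each listed gene, serpinh1 among them, acts as a protease or inhibitor was not examined. The 2 higher genes on the structural matrix list were the copies of thrombospondin 1, thbs1.L (2.04 ± 0.37, adjusted p = 0.000152) and thbs1.S (1.54 ± 0.36, adjusted p = 0.01). Whether thrombospondin 1 is itself a structural protein was not examined. The call of thbs1.S did not survive leaving out 0 mpa A (adjusted p = 0.144), 0 mpa B (0.07) or 60 mpa C (0.0755).

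Among 100 tested epidermal and junction genes 4 rose (4%, against 1.15% of all tested genes), all of them claudins, the proteins of tight junctions. The list median log2 fold change was 0.27. cldn6.1.S had 75.7, 60.8 and 71.9 CPM at 60 mpa and 0.481, 2.02 and 1.73 CPM at 0 mpa (5.6 ± 0.59, adjusted p = 6.42e-10). cldn6.1.L averaged 23.2 ± 8.51 CPM at 60 mpa and 1.82 ± 1.73 CPM at 0 mpa (3.63 ± 0.75, adjusted p = 0.00336). cldn6.2.S averaged 30.3 ± 6.89 CPM at 60 mpa, against 5.16 ± 1.34 CPM at 0 mpa (2.56 ± 0.47, adjusted p = 0.000259). cldn7.L (1.87) was the fourth. In the 6 libraries alone 12 of 95 tested members of this list were higher, against 424 of all 17669 genes tested there. These cldn6 genes lie in numbered tandem series, so their reads may be split.

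Of 72 tested genes of glycolysis, glucose transport and hypoxia, 3 rose (4.17%, against 1.15% of all tested genes), while the median log2 fold change of the list was -0.14. These were both copies of slc2a1, the glucose transporter GLUT1, and pfkfb3.S, whose product makes the activator of phosphofructokinase. slc2a1.L had 205.2, 225.4 and 241 CPM at 60 mpa, against 46.6, 35.8 and 32.2 CPM at 0 mpa (2.55 ± 0.37, adjusted p = 1.44e-06). slc2a1.S averaged 122.2 ± 28.3 CPM at 60 mpa and 32.6 ± 8.77 CPM at 0 mpa (1.90 ± 0.35, adjusted p = 0.000171). pfkfb3.S had 52.6, 47.8 and 58.8 CPM at 60 mpa and 3.85, 3.53 and 3.89 CPM at 0 mpa (3.81 ± 0.59, adjusted p = 1.91e-05). For sterol and lipid signalling 3 of 71 rose (4.23%, median log2 fold change 0.22), both copies of cholesterol 25-hydroxylase, ch25h.S (6.82 ± 0.68, adjusted p = 1.71e-11) and ch25h.L (4.73 ± 0.59, adjusted p = 2.12e-08), and the LDL receptor gene ldlr.S. ch25h.S had 74.3, 68.5 and 55.1 CPM at 60 mpa and 0.24, 1.51 and 0 CPM at 0 mpa. For ldlr.S (1.84 ± 0.42, adjusted p = 0.00581) the call was lost when library A or B of 0 mpa (0.134 and 0.11) or B of 60 mpa (0.0718) was left out.

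Of 83 tested heat shock and unfolded protein genes 3 rose (3.61%, median log2 fold change 0.18): dnajb5.L and dnajb1.L, cochaperones of Hsp70, and xbp1.L, which regulates the unfolded protein response. dnajb5.L had 78.8, 71.7 and 64.6 CPM at 60 mpa and 14.7, 12.1 and 4.53 CPM at 0 mpa (2.78 ± 0.44, adjusted p = 1.03e-05). The calls of dnajb1.L (1.81 ± 0.48, adjusted p = 0.0369) and xbp1.L (1.39 ± 0.36, adjusted p = 0.0232) were each lost without any 1 of the 6 libraries. The adjusted p was then 0.0538 to 0.43 for dnajb1.L and 0.0763 to 0.196 for xbp1.L. Among 63 genes of oxidant defence and NADPH oxidases, 1 rose (1.59%, against 1.15% of all tested genes), noxo1.1.L (named after its values were seen), which encodes an organizer of NADPH oxidase. It had 1.93, 5.58 and 2.25 CPM at 60 mpa and no read at 0 mpa (adjusted p = 0.0114). The count on this list was 0 when 0 mpa A, 0 mpa B, 0 mpa C or 60 mpa B was left out. The clock list had 1 higher gene of 27 (3.7%), per1.L (1.78 ± 0.39, adjusted p = 0.00421 and 0.133 without 0 mpa A). On the next lists the share of higher genes (1.2% each) was near that of all tested genes (1.15%). The chromatin list had sall4.L, a zinc-finger factor of stem cells (1 of 83, 2.47 ± 0.45, adjusted p = 0.000152), and the list of channels, pumps and transporters had kcnk5.S, a potassium channel gene (1 of 83, 3.56 ± 0.52, adjusted p = 1.86e-06).

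On 3 further lists no gene passed the test over all 27 libraries. The median log2 fold change was -0.36 over 93 respiratory chain genes, with ndufs8.L of complex I at the smallest p (24.2 ± 5.66 CPM at 60 mpa and 48.1 ± 10.9 CPM at 0 mpa, adjusted p = 0.596). It was -0.26 over 127 cytosolic ribosomal protein genes, with rpl27a.S at the smallest p (23.1 ± 0.321 and 43.8 ± 16.8 CPM, adjusted p = 0.699). Over 52 genes of posterior patterning and the tail bud it was -0.01, and dkk1.S, for a secreted Wnt inhibitor, had the smallest p. dkk1.S had 15.4, 18.3 and 24.6 CPM at 60 mpa, against 0.721, 7.56 and 5.61 CPM at 0 mpa (2.07 ± 0.59, adjusted p = 0.0744 and 0.0321 in the 6 libraries alone), while dkk1.L averaged 13 ± 5.68 and 10.8 ± 2.13 CPM. At an unadjusted p under 0.05, the numbers were 2 of 93, 1 of 127 and 7 of 52. Over all 22268 tested genes, 1151 were higher and 403 lower at this p. In the 6 libraries alone 1 of 92 respiratory chain, 2 of 127 ribosomal protein and 1 of 41 posterior patterning genes were lower, against 0.43%. Without the 5 libraries of low depth or few detected genes, 2 of 93, 3 of 127 and 1 of 52 were, against 0.432%. Of the posterior patterning genes 2 and 3 were higher in these fits, against 424 of 17669 and 640 of 23166 of all genes.

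**Figure D3:**
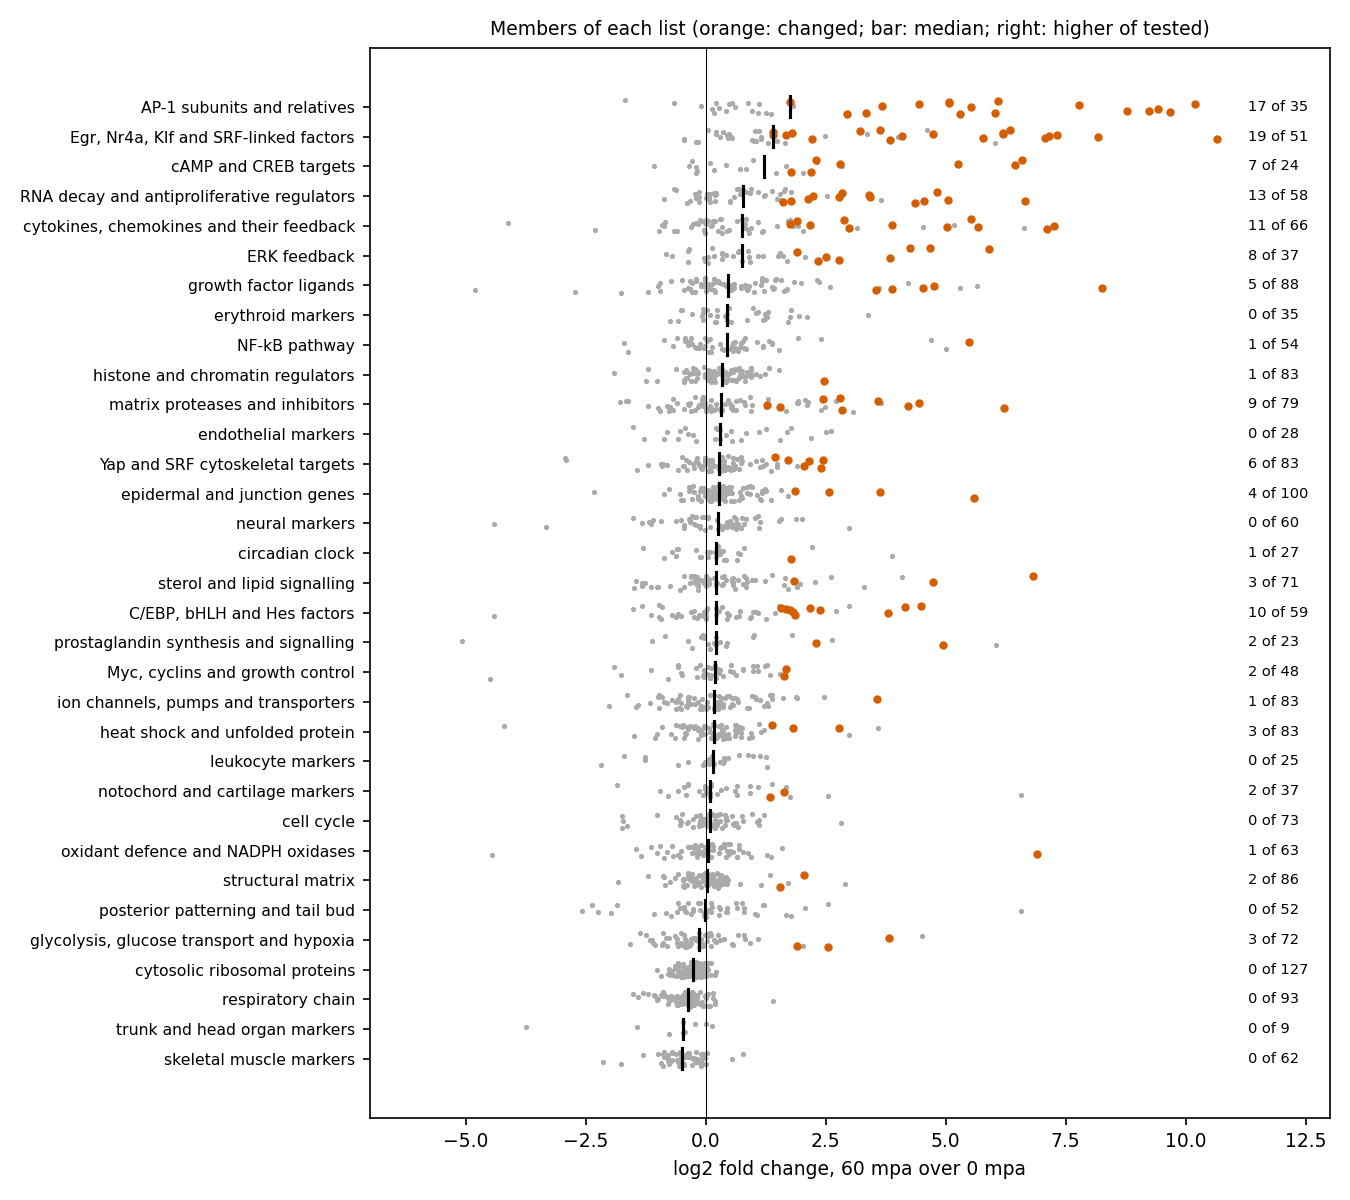
Log2 fold change of 60 mpa over 0 mpa (horizontal axis) for every tested member of the 33 gene lists, ordered by list median (black bar). Orange points passed the test and grey points did not; the numbers at the right give higher members of those tested, from 17 of 35 for AP-1 to 0 of 62 for skeletal muscle markers.

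Marker lists of other cell types held 2 changed genes, both copies of sox9. These were 2 of 37 tested on the notochord and cartilage list (5.41%, against 1.15% of all tested genes, median log2 fold change 0.10). sox9.S had 177.7, 165.4 and 199.8 CPM at 60 mpa and 53.1, 52.2 and 69.1 CPM at 0 mpa (1.64 ± 0.40, adjusted p = 0.0142). sox9.L averaged 223 ± 35.5 CPM at 60 mpa and 87.7 ± 17.5 CPM at 0 mpa (1.35 ± 0.35, adjusted p = 0.0312). Leaving out 0 mpa A, 0 mpa B or 60 mpa C ended both calls, with an adjusted p of 0.133, 0.137 and 0.0797 for sox9.S and 0.305, 0.206 and 0.176 for sox9.L. The call of sox9.L was also lost when 0 mpa C (0.0614) or 60 mpa B (0.157) was left out. Summed over this list, levels were 13091 to 14975 CPM at 60 mpa and 11898 to 14381 CPM at 0 mpa. The other markers of this list, collagens of cartilage among them, did not pass the test.

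Red blood cell and muscle markers differed in level between the libraries without any member passing the test. Summed over 35 erythroid markers, levels were 9559, 8512 and 13759 CPM at 60 mpa (A, B and C) and 7367, 2128 and 6389 CPM at 0 mpa, so the times did not overlap and 0 mpa B was the lowest. The list median log2 fold change was 0.45, and 11 members had an unadjusted p under 0.05. Of all 22268 tested genes, 1151 were higher and 403 lower at that threshold. alas2.L, which red cells need to make heme, had 245.4, 360 and 425.4 CPM at 60 mpa and 209.6, 38.6 and 169.7 CPM at 0 mpa (1.30 ± 0.39, adjusted p = 0.112). Summed over 62 skeletal muscle markers, levels were 135468, 131774 and 165426 CPM at 60 mpa and 153339, 254289 and 175314 CPM at 0 mpa, with 0 mpa B the highest. The times overlapped, the list median was -0.50, and 58 of the 62 genes had a log2 fold change below 0. Of all tested genes 50.7% had a log2 fold change above 0. Above 0 were 11 of 93 respiratory chain genes and 9 of 127 cytosolic ribosomal protein genes, so such a shift was not particular to muscle markers. Whether the erythroid and muscle shifts play a part in the genes that changed was not tested. Without 0 mpa B, the library at the edge of both lists, 171 genes changed, against 177 without 0 mpa A and 209 without 0 mpa C.

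The remaining marker lists had no changed gene. Leukocyte markers (25 tested, 5 further genes without a read in the 6 libraries) summed to 391.8 to 423.5 CPM at 60 mpa and 304.3 to 403 CPM at 0 mpa, and mmp25.L had the smallest p (adjusted p = 0.378, and 0.0336 without 0 mpa B). Neural markers (60 tested) summed to 890.8 to 923.6 CPM at 60 mpa and 671.1 to 849.8 CPM at 0 mpa, with sox3.L at the smallest p (1.88 ± 0.53, adjusted p = 0.0628 and 0.0174 in the 6 libraries alone). Endothelial markers (28 tested) summed to 382.8 to 443.4 CPM at 60 mpa and 399.8 to 431.6 CPM at 0 mpa, with sox7.L at the smallest p (1.69 ± 0.50, adjusted p = 0.0906 and 0.0121 in the 6 libraries alone). Markers of trunk and head organs summed to no more than 103 CPM at 60 mpa and 142.9 CPM at 0 mpa. Of the genes on this list 31 were present among the deposited counts, of which 12 had no read in the 6 libraries and 9 passed the filter, among them tf.L, for transferrin, with the smallest p of that list (0.0885 ± 0.153 and 1.41 ± 0.234 CPM, adjusted p = 0.349). The muscle and notochord markers present and the low level of trunk and head markers go with the tissue label, tail, but do not test it. The trunk and head sum covers only the genes that passed the filter.

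The 1 lower gene was znf423.L, a zinc-finger transcription factor gene. It had 2.65, 0.531 and 2.05 CPM at 60 mpa, against 12.5, 15.4 and 10.8 CPM at 0 mpa, and the times did not overlap. It fell by 2.85 ± 0.71 on the log2 scale (adjusted p = 0.0182). Its call was lost when library A or B of 0 mpa (adjusted p = 0.0523 and 0.102) or B or C of 60 mpa (0.248 and 0.0966) was left out. The number of lower genes differed between fits. In the 6 libraries alone 76 genes were lower (0.43% of those tested), and in a fit without 5 libraries of other times with low depth or few detected genes 100 were (0.432%). These 5 were the C libraries of 90 mpa, 6 hpa and 7 dpa and the B libraries of 1 and 3 dpa. The number of tested genes also differed (17669 and 23166, against 22268 over all 27 libraries), and the cause of the difference was not tested. Both fits called 56 genes lower, of which 4 are on the skeletal muscle list and the rest are not. In the 6 libraries alone 6 of 58 tested muscle list genes were lower, against 0.43% of all genes tested there. Without the 5 libraries 4 of 62 were, against 0.432%.

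The 4 on the muscle list were ryr1.L, tnnc2.L, tnnc1.S and cavin4.S, and all genes of this paragraph were named after their values were seen. ryr1.L, the calcium release channel of muscle, had 355.4, 384.7 and 291.8 CPM at 60 mpa and 659.9, 743.7 and 484.4 CPM at 0 mpa. Its log2 fold change was -0.87 ± 0.39, with an adjusted p of 0.594 over all 27 libraries, 0.00614 in the 6 libraries alone and 0.0234 without the 5 libraries. For the troponin C genes the log2 fold change was -0.88 ± 0.42 (tnnc2.L, adjusted p = 0.684 over all 27 libraries and 0.0198 in the 6 alone) and -0.79 ± 0.38 (tnnc1.S, 0.664 and 0.0204). For cavin4.S, a caveola protein gene of muscle, it was -0.89 ± 0.49 (0.808 and 0.0365). The other genes that both fits called lower were not on the muscle list. Among them gtf2a2.S (-5.48 ± 1.56) and eloc.L (-2.55 ± 1.01), at means of 4.71 and 12.4 CPM at 0 mpa, fell further than these 4. Their adjusted p over all 27 libraries was 0.07 and 0.469. Of the others, myot.S, for the Z-disc protein myotilin, averaged 8.95 ± 1.86 CPM at 60 mpa and 34.0 ± 13.8 CPM at 0 mpa (-1.92 ± 0.66, adjusted p = 0.25 over all 27 libraries, and 0.00159 in the 6 alone). ocm4.1.S, of the parvalbumin family, averaged 21.2 ± 6.18 CPM at 60 mpa and 58.8 ± 35 CPM at 0 mpa (-1.47 ± 0.50, adjusted p = 0.236 over all 27 libraries). anxa1.1.L, an annexin gene, averaged 3.15 ± 2.08 and 15.2 ± 7.62 CPM (-2.27 ± 0.63, adjusted p = 0.0542 over all 27 libraries). As muscle markers summed highest in 0 mpa B, the part of that library in these differences was not tested.

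Both copies were tested for 5791 genes, and at least 1 copy was called in 128 of them. In 61 both copies were called, and in 67 only 1. In 62 of these 67 the other copy had a log2 fold change above 0, with a median of 1.07 for the other copies. Of the 256 higher genes 130 were .L copies of 10152 tested and 91 were .S copies of 7474 tested. Among the 61 pairs, 22 differed by at least 1 on the log2 scale. dusp5 (5.91 for .L and 2.34 for .S), ptgs2 (4.95 and 2.30) and bhlhe40 (4.49 and 2.38) were named pairs in which .L rose more, and cldn6.1 (3.63 and 5.6) and ch25h (4.73 and 6.82) pairs in which .S did. The difference between copies was not tested. For tnip2 the .L copy was called, while tnip2.S had no more than 1.69 CPM in any of the 6 libraries. For odc1 the .S copy was called, while odc1.L averaged 238.5 ± 48.8 CPM at 60 mpa and 201.2 ± 33.5 CPM at 0 mpa (0.25 ± 0.35, adjusted p = 1).

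**Figure D4:**
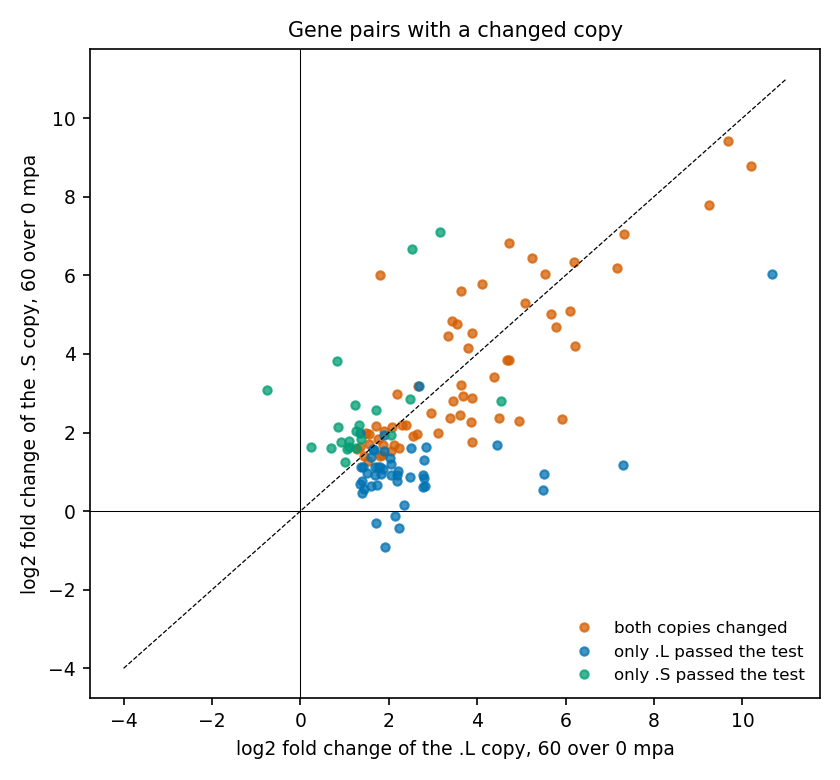
Log2 fold change of 60 mpa over 0 mpa for the .L copy (horizontal axis) and the .S copy (vertical axis) of the 128 genes with both copies tested and at least 1 called; the dashed line marks equal change. Orange pairs (61) passed the test in both copies and lie above 0 on both axes, and blue and green pairs (67) passed in .L or .S only.

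Over the 9 times, the higher genes differed in the time at which their level was highest. Of the 256 genes, 9, 73 and 40 had their highest fitted mean at 30, 60 and 90 mpa, 101 and 16 at 3 and 6 hpa, and 4, 10 and 3 at 1, 3 and 7 dpa. These means include the shallow libraries 90 mpa C and 7 dpa C. With both left out, the highest mean CPM lay at 60 mpa in 76 genes, 90 mpa in 40 and 3 hpa in 99. Their share of scaled reads was 2.12% to 2.81% in the 30 mpa libraries and 4.52% to 5.1% in the 60 mpa libraries. It was 4.31% to 4.69% at 90 mpa, 4.59% to 5.16% at 3 hpa and 1.43% to 2.14% at 1 dpa. As the genes were chosen for their level at 60 mpa, these numbers describe them and test nothing. fos.L averaged 1.07, 833.1 and 1319 CPM at 0, 30 and 60 mpa, and 435.8 and 15 CPM at 3 hpa and 1 dpa. egr1.L averaged 30.5, 1434 and 2227 CPM at 0, 30 and 60 mpa, and 630.1 and 186.8 CPM at 3 hpa and 1 dpa. Both thus had their highest mean at 60 mpa and most of that level by 30 mpa. dusp5.L averaged 9.8, 82.3 and 591.4 CPM at 0, 30 and 60 mpa, and 1495 and 191.6 CPM at 3 hpa and 1 dpa. mmp8.S averaged 21.8, 64.4 and 403.8 CPM at 0, 30 and 60 mpa, and 1932 and 351 CPM at 3 hpa and 1 dpa. Both of these had a higher mean at 3 hpa than at 60 mpa. ccn1.S and ccn1.L had a mean at 30 mpa (139 and 223.5 CPM) that was at or above that at 60 mpa (116.9 and 218.3 CPM).

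**Figure D5:**
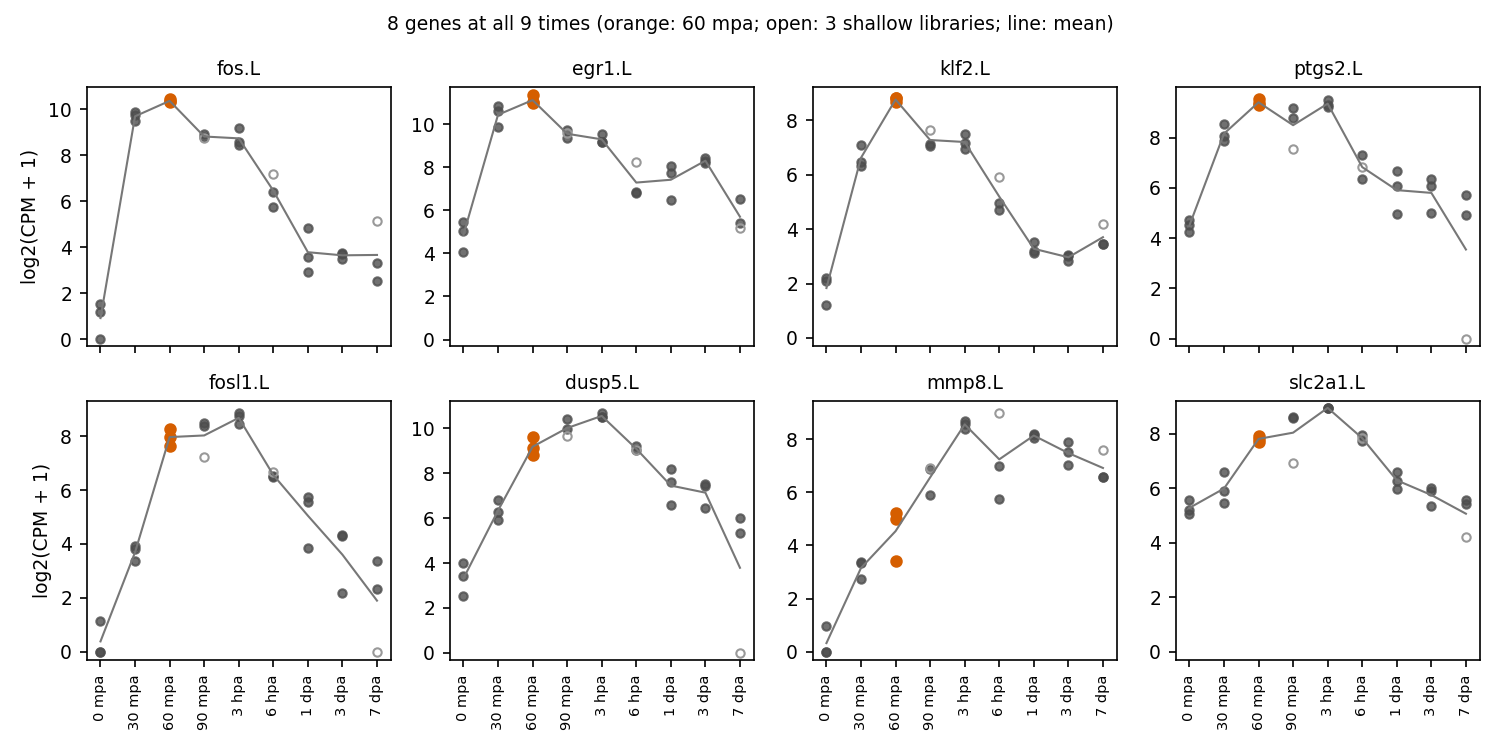
Level (log2 of CPM + 1) of 8 genes in each of the 27 libraries over the 9 times, with lines through the means; orange points are 60 mpa and open points the 3 shallow libraries (90 mpa C, 6 hpa C and 7 dpa C). fos.L, egr1.L and klf2.L have their highest mean at 60 mpa, ptgs2.L stands about level at 60 mpa and 3 hpa, and fosl1.L, dusp5.L, mmp8.L and slc2a1.L are higher at 3 hpa.

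Tested directly, 42 genes were higher at 60 mpa than at 30 mpa (0.189% of genes tested) and none was lower in the edgeR test. DESeq2 called 62 higher and none lower, and at an unadjusted p under 0.05 edgeR had 457 higher and 221 lower. The count was 17 without 30 mpa A and 20 without 30 mpa B. In the Fos family both copies of fosl1 and fosb.S passed this test, while fosb.L and both copies of fos did not, and the difference between these genes was not tested. fosl1.L averaged 254.1 CPM at 60 mpa and 12.1 CPM at 30 mpa (log2 difference 4.39 ± 0.52, adjusted p = 1.06e-06), and fosb.S averaged 712.6 and 96.6 CPM (2.88 ± 0.45, adjusted p = 0.000115). fosb.L averaged 470.2 CPM at 60 mpa and 76 CPM at 30 mpa (2.63 ± 0.66, adjusted p = 0.205). For fos.L the difference was 0.66 ± 0.40, for fos.S 0.7 ± 0.71 and for egr1.L 0.63 ± 0.39, each with an adjusted p of 1. dusp5.L (2.85 ± 0.41, adjusted p = 1.63e-05) and btg5.2.L (3.46 ± 0.40, adjusted p = 4.49e-08) also rose between these times. lep.L, at 12.1 CPM at 60 mpa and 0.195 CPM at 30 mpa, had a difference of 5.78 ± 0.94 (adjusted p = 0.000938). pfkfb3.S averaged 53.1 CPM at 60 mpa, against 6.73 CPM at 30 mpa (2.97 ± 0.55, adjusted p = 0.00305). For ch25h.S, at 66.0 CPM at 60 mpa and 57.0 CPM at 30 mpa, the difference was 0.21 ± 0.46 (adjusted p = 1).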

How the data were processed

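Bulk RNA-seq counts of amputated Xenopus laevis tails at 60 mpa (3 libraries) and 0 mpa (3 libraries) were compared, within a table of 27 libraries at 9 times. The authors deposited whole-number read counts per gene, which were used as deposited. The submitters' processing notes list HTSeq 0.6.1p1, STAR 2.7.9a, R 4.1.0 and DESeq2 1.32.0 without their roles. Not given in the sources used here are genome build, annotation and strand setting, and reads of a gene and of one that overlaps it, antisense included, may therefore be mixed. Per the labels' protocols, libraries were made from 100 ng of total RNA with a Lexogen SENSE Total RNA-Seq kit and sequenced as 2x76 bases on an Illumina NextSeq 500. Of 29776 symbols, 29771 were found in a RefSeq gene table (assembly v10.1), used for names alone. A table of normalized values was not used here.

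Times were compared with the quasi-likelihood test of edgeR 4.0.16 under R 4.3.3 (robust estimation, TMM scaling, filterByExpr by group), in 1 fit over the 27 libraries with the 9 times as groups. Genes with a Benjamini-Hochberg adjusted p under 0.05 over 22268 tested genes are called changed, and 7508 genes were not tested. Every adjusted p in the text is from this test unless another is named. Log2 fold changes are fitted values (prior count 0.125) of 60 mpa over 0 mpa, and levels are CPM (mean ± SD over 3 libraries). The standard error (SE) was calculated back from the test, as the absolute log2 fold change over the square root of its F statistic. It therefore adds nothing to the p-value, and is only a rough measure for genes with no or few reads at 1 of the times. Where a time had no read, a floor of 3 counts over its 3 libraries gives the smallest fold for the pooled level of the other time, whose own error is not covered. With 1 to 3 reads the ratio has a 95% exact counting interval. Floors and intervals cover counting error only, and not the spread between libraries. The code was tested on simulated data.

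The comparison, the members and the 33 lists (26 of pathways, 7 of cell type markers) were chosen with earlier results of these data known. Named genes were the 12 largest rises among genes of at least 5 CPM at 60 mpa whose libraries did not overlap, and up to 10 lower genes. They also included up to 3 called members per list of at least 5 CPM with the largest change (where none was called, the member with the smallest p), the 3 changed genes with the most reads at 60 mpa, and the other copy of each. Serial identifiers (35 of the 256 higher genes) were counted but not named, and a few genes that the rule names are not reported here. The closing text covers other scaling (RLE), DESeq2 1.42.0, other filters, other sets of libraries, library letter as replicate block and each library left out in turn.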

Additional observations from a re-analysis of the deposited data

Results flagged for a closer look

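Named genes were listed here where their level at 60 mpa differed from that at 30 mpa in the same edgeR fit, so that the change since 0 mpa differed between these times (adjusted p under 0.05). The 0 mpa libraries are shared by both changes and cancel in the difference. With 3 libraries at a time, no single library was tested as standing apart. In 19 named genes the difference passed, and in each the level at 60 mpa was the higher one. Among AP-1 and Klf factors the log2 difference of 60 mpa over 30 mpa was 4.39 for fosl1.L, 3.32 for fosl1.S, 2.88 for fosb.S, 2.11 for klf2.L and 1.82 for klf2.S. For signalling genes it was 5.78 for lep.L, 2.85 for dusp5.L, 2.69 for crem.L and 1.84 for sik1.S. The BTG family genes btg5.2.L and btg5.3.S differed by 3.46 and 2.31, and the repressor gene bhlhe40.L by 1.83. Effector genes were mmp8.S (2.65), zyx.S (1.6), pfkfb3.S (2.97), slc2a1.L (1.76), kcnk5.S (2.35) and dnajb5.L (1.95), and sall4.L differed by 1.83.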

How the results depend on the processing

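The number of genes changed between 60 mpa and 0 mpa (257) was 272 with DESeq2, 241 with RLE scaling, 247 with a filter of 1 CPM in 3 libraries, 299 with no filter and 370 when the shallow C libraries of 90 mpa and 7 dpa were dropped. It was 171 (without 0 mpa B) to 237 with 1 library left out. It was 500 in the 6 libraries alone and 740 without the 5 libraries of low depth or complexity, fits that change both the libraries and the genes tested. Of the 256 higher genes, 248 were also higher with DESeq2, 244 in the 6 libraries alone (249 tested there) and 254 without the 5 libraries, and 144 were higher in all 15 settings. Lower genes (1) numbered 8 with DESeq2, 2 with the 1 CPM filter, 12 with no filter, 76 in the 6 libraries alone, 9 and 100 without the 2 or 5 libraries, and 0 to 2 with 1 library left out. The cause of these differences was not tested. Genes changed between 60 mpa and 30 mpa (42) numbered 62 with DESeq2, 181 in the libraries of these times alone, 71 and 185 without the 2 or 5 libraries, and 17 to 40 with 1 library left out. Upper quartile scaling was not run, since the upper quartile of 1 library is 0. Of 71 called named genes 55 passed in every setting, and none changed direction. Among named genes that were not called, 3 with few reads or little change turned below 0 when a library was left out: lep.S ranged over -3.31 (without 60 mpa C) to 4.28, tnip2.S over -0.64 (without 60 mpa A) to 4.87 and dkk1.L over -0.12 (without 60 mpa A) to 0.51. Libraries of the same letter did not deviate together (Pearson's r of deviations across genes -0.00321, -0.01776 and 0.01078 for A, B and C), so the letters are not taken as pairs. With the letter as replicate block the counts were 254 over all libraries and 518 in the 6 alone for 60 mpa against 0 mpa (lower genes 1 and 81), and 44 and 214 for 60 mpa against 30 mpa. Depth limits genes with few reads: 12 of the 256 higher genes had under 5 CPM at 60 mpa.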

Other observations

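Of the 256 genes higher at 60 mpa, 126 were on none of the gene lists. The genes below come from these and were chosen after their values were seen, so their values are a description. Every adjusted p is from the edgeR test over all genes. Genes for adhesion and scaffold proteins were among them. tns4.L, for a tensin of focal adhesions, had 175, 188.8 and 256.6 CPM at 60 mpa, against 3.85, 1.77 and 5.4 CPM at 0 mpa (log2 fold change 5.79 ± 0.48, SE, adjusted p = 1.95e-14). tns4.S rose by 4.69 ± 0.47 (adjusted p = 2.82e-11). Of the Cas scaffold family, cass4 rose in both copies (3.46 ± 0.44 for .L, adjusted p = 5.36e-08, and 2.8 ± 0.61 for .S, adjusted p = 0.00347), as did nedd9 (1.89 ± 0.46 for .L, adjusted p = 0.0136, and 2.03 ± 0.42 for .S, adjusted p = 0.00133). The membrane mucin gene muc1 also rose in both, by 2.08 ± 0.41 for .L (adjusted p = 0.000873) and 2.15 ± 0.42 for .S (adjusted p = 0.000796).

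Transcription factor genes known from development formed another part of these. ets2.L had 47.5, 71.7 and 49.6 CPM at 60 mpa and 6.01, 3.03 and 2.37 CPM at 0 mpa (3.88 ± 0.58, adjusted p = 2.73e-06), and ets2.S rose by 1.75 ± 0.46 (adjusted p = 0.0343). sox11.L had 64.4, 83.4 and 103.1 CPM at 60 mpa, against 11.29, 9.08 and 27.2 CPM at 0 mpa (2.39 ± 0.42, adjusted p = 7.94e-05), and sox11.S rose by 2.19 ± 0.44 (adjusted p = 0.00118). Both copies also rose for gata2 (2.64 for .L and 1.97 for .S) and dlx2 (2.11 for .L and 1.69 for .S), as log2 fold changes, with an adjusted p of 0.0203 and 0.0483 for gata2 and of 0.00756 and 0.0398 for dlx2. siah2.L, for a ubiquitin ligase, had 55.2, 131.4 and 96.9 CPM at 60 mpa and 3.36, 9.58 and 14.9 CPM at 0 mpa (3.34 ± 0.47, adjusted p = 1.07e-06). f2rl1.S, for a protease-activated receptor, rose by 2.71 ± 0.51 (adjusted p = 0.000326). Leaving out 1 library ended the call in 8 of these 18 genes. The call of cass4.S was lost without 0 mpa B, that of sox11.S without 0 mpa A, and that of dlx2.L without 0 mpa B or 60 mpa C (adjusted p of 0.0877, 0.0589, 0.192 and 0.0514 in that order). The calls of ets2.S and gata2.S were lost without any 1 of the 6 libraries (adjusted p up to 0.306 and 0.319). Those of nedd9.L, gata2.L and dlx2.S were each lost in 5 of the 6 cases (up to 0.164, 0.192 and 0.395), the exception being 60 mpa A for nedd9.L and dlx2.S and 60 mpa B for gata2.L.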
